A study of Mus musculus with 8 samples.

Results

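A group of 8 genes that mark the contractile cells of the testis, or were set beside them, was described across the arrays: Acta2, Actg2, Myh11, Myl9, Cnn1, Tagln, Des and Tnnt2. Every probe set whose symbol was in this group was taken, which gave 14 of the 45101 probe sets, or 8 of 20724 gene symbols. Tnnt2 was chosen because its values in the mutants lay above those in the controls, so its difference between genotypes is a description without a test. The other 7 were listed for their cell type and not for their difference.

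Whole testes of mice aged 23 days after birth had been profiled, each on 1 Affymetrix Mouse430_2 array. The 5 control arrays are labelled wildtype (replicates 1, 2, 4, 6 and 7), although the study's text describes heterozygous Ctcfl del/+ littermates. The 3 Ctcfl mutant arrays (replicates 3, 5 and 8) came from homozygous Ctcfl del/del animals, in which the first exons of this testis-specific paralog of CTCF are deleted in every cell, on a C57/Bl6 background. The targeted gene was not analysed here, and the genotype labels therefore went unchecked. The labels do not name the animal of each array, so p-values measure the spread between these samples.

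Peritubular myoid cells wrap each seminiferous tubule in a thin contractile sheet, which moves sperm and tubular fluid along and lays down part of the basement membrane. They share their contractile proteins with the smooth muscle of the testicular vessels. In smooth muscle, actin and myosin slide past each other when the regulatory light chain is phosphorylated, whereas heart and skeletal muscle use the troponin complex. Many smooth muscle genes carry CArG boxes, the DNA element bound by serum response factor and its coactivator myocardin.

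The bases before the start of Acta2 and Myl9 are shown because both promoters held the element and both genes shared the pattern across arrays described below. The sequences are those of RefSeq (GRCm38.p6), 250 bases each, and the capitals mark CArG boxes in which at most 1 of the 6 inner bases was G or C.
Acta2 (chr19:34255374-34255623, minus strand): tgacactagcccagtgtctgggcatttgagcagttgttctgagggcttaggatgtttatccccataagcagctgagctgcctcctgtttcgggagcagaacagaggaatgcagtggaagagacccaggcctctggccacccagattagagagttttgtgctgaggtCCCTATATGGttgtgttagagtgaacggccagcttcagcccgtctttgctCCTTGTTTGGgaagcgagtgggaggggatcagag
Myl9 (chr2:156775214-156775463, plus strand): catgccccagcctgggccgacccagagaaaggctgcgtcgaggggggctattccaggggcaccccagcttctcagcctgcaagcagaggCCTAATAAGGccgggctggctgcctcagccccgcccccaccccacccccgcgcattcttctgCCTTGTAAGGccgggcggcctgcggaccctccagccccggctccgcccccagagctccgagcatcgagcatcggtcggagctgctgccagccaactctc
The Acta2 matches began at -84 and -34 from the start and the Myl9 matches at -161 and -99. Only the first Myl9 match was exact. The table held a promoter for 5 of the 8 genes. The 300-base windows of Cnn1, Des and Tnnt2, from 250 bases before the start to 50 after it, held no match. Cnn1 and Des shared the pattern described below too, and a link between the element and the pattern was not tested. Of 32851 promoters of that length, 9.98% held such an element and 1.63% an exact one. The element reads the same on both strands, and a match is a description of the letters.

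The tissue label was borne out by its markers, since all 7 Sertoli genes measured (Sox9, Wt1 and others), all 6 spermatid genes and 4 of 5 Leydig genes had levels above the median of all probe sets, 6.43 on the log2 scale. A pair of arrays, wildtype replicate 7 and mutant replicate 8, 1 of each genotype, differed from the remaining 6. The first principal component (44.9% of the variance) placed the pair at 40.2 and 38.2, while its scores on the remaining arrays were -24.8 to -3.10. All 6 spermatid genes were higher on both than on any other array. The log2 of their summed level was 13.48 to 14.16 on these arrays and 10.80 to 11.68 on the others. Of the 5 fat genes measured 4 were also highest there, with a summed level of 11.28 to 11.38 against 7.78 to 9.16. Gapdh control probe sets were 0.31 and 0.33 higher at the 3' end than at the 5' end in the pair, against 0.041 to 0.22 elsewhere. For the beta-actin control this difference was 1.13 and 1.03 in the pair and 0.75 to 1.03 elsewhere, and mutant replicate 8 lay below wildtype replicate 4. The epididymal gene Crisp1 reached 6.38 in mutant replicate 8 and 5.82 in wildtype replicate 1, against 3.17 to 3.34 elsewhere, whereas the log2 summed level of the list of 6 epididymal and duct genes was 8.50 to 8.66 on the pair and 8.69 to 9.06 on the others. The spermatid genes, 4 of 5 fat genes and the Gapdh control set the pair apart, as did the smooth muscle pattern described next. Crisp1 and the beta-actin control did not set it apart in this way. The part of all these measures in that pattern was not tested. Results are therefore also given for the 6 remaining arrays (4 wildtype, 2 mutant) and with the pair as a block in the fit.

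The actins came first. Acta2 encodes smooth muscle alpha actin, the main thin filament protein of peritubular myoid cells. Its bright probe set (1416454_s_at) had log2 levels of 12.16, 12.16, 12.00, 12.05 and 11.81 on wildtype replicates 1, 2, 4, 6 and 7 and of 12.23, 12.10 and 11.77 on mutant replicates 3, 5 and 8. The groups overlapped, and within each group the array of the pair was the lowest. The means were 12.04 ± 0.15 (SD, n = 5) and 12.03 ± 0.24 (SD, n = 3). The difference, mutant minus wildtype as throughout, was -0.0057 on the log2 scale (95% interval -0.27 to 0.26, limma adjusted p = 1.0). The suffix of this probe set marks probes shared with other transcripts. The remaining 2 Acta2 probe sets, 1444105_at and 1456658_at, lay below 5 on the log2 scale on every array and differed by -0.025 and 0.17, so they say little about the gene.

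Actg2 encodes smooth muscle gamma actin of the gut wall, a transcript also known from postmeiotic male germ cells. Its levels were 8.67, 8.75, 8.85, 8.68 and 9.46 on the wildtype arrays and 8.45, 8.47 and 9.18 on the mutant arrays, in the same order of replicates. The pair of arrays was highest in both groups, opposite to Acta2. Wildtype replicate 7 exceeded the other wildtype arrays by 0.72 and mutant replicate 8 exceeded the other mutant arrays by 0.72. Over all arrays the difference between genotypes was -0.18 (SE 0.21, limma adjusted p = 1.0), and the exact two-sided permutation test gave p = 0.643.

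Within the 2 sets of arrays Actg2 was lower in the mutant by nearly the same amount. Among the 6 arrays both mutant values lay below all 4 wildtype values, and the difference was -0.28 (SE 0.08). Across all probe sets, 6.97% lay below in this way among these arrays. Between mutant replicate 8 and wildtype replicate 7, 1 array each, it was also -0.28. With the pair as a block the difference was -0.28 (SE 0.07) at a limma unadjusted p of 0.00239, and the limma adjusted p was 0.803. The pair was set apart from expression values of these same arrays, and Actg2 was itself highest on it, so this p is a description. With that block 0 of the 11 probe sets tested passed the adjusted threshold (0.00222% of all did), and at an unadjusted p of 0.05 Actg2 alone was lower and 0 were higher (2.83% and 3.03% of all). The difference over all arrays without the block, -0.18, shrank to -0.036 without wildtype replicate 7, to -0.057 without mutant replicate 3 and to -0.064 without mutant replicate 5, and grew to -0.42 without mutant replicate 8. A lower level in the mutant was not particular to Actg2. The median difference of the spermatid list was -0.56 among the 6 arrays and -0.62 with the block. Over all probe sets these medians were -0.0024 and 0.0058. A link between Actg2 and the spermatid genes was not tested.

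**Figure D1:**
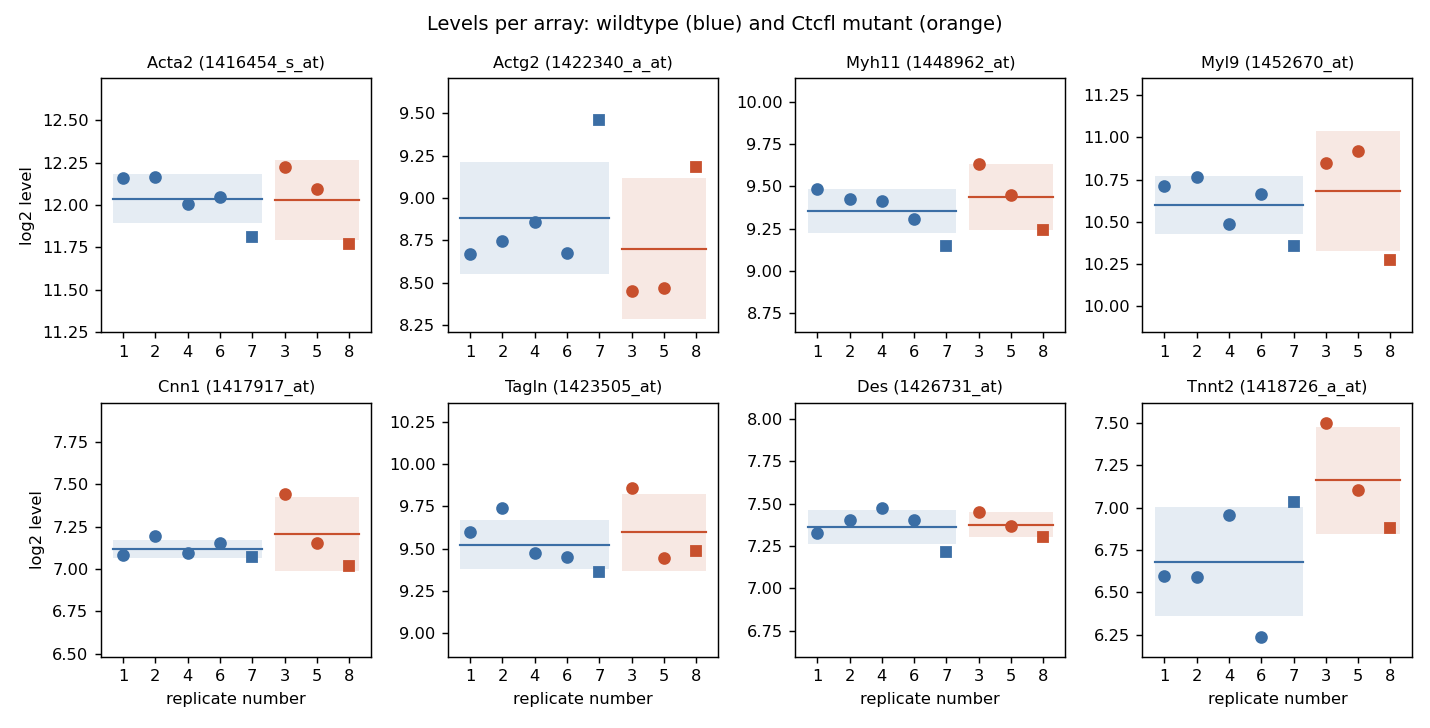
Log2 level of each gene's brightest probe set on each array, by replicate number, with lines and shaded bands for the mean and SD of each genotype and squares for wildtype replicate 7 and mutant replicate 8. All panels span 1.5 on the log2 scale. Actg2 is highest on both squares, whereas Acta2, Myh11, Myl9, Cnn1 and Des are lowest there.

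The myosin genes followed Acta2. Myh11 encodes the smooth muscle myosin heavy chain, the motor of the thick filament. Its levels (1448962_at) were 9.48, 9.42, 9.41, 9.31 and 9.15 on the wildtype arrays and 9.63, 9.45 and 9.24 on the mutant arrays. The groups overlapped, with the pair lowest again. The difference was 0.09 (95% interval -0.15 to 0.32, limma adjusted p = 1.0). A dimmer Myh11 probe set (1418122_at), with a mean level of 5.17, differed by -0.11 (SE 0.09), so the 2 probe sets disagreed in sign.

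Myl9 encodes the regulatory light chain whose phosphorylation starts contraction. It had levels of 10.71, 10.77, 10.49, 10.66 and 10.36 on the wildtype arrays and of 10.85, 10.92 and 10.27 on the mutant arrays. Mutant replicates 3 and 5 were the highest of all 8 and mutant replicate 8 the lowest. The difference over all arrays was 0.08 (95% interval -0.26 to 0.42, limma adjusted p = 1.0). Among the 6 arrays Myl9 lay above without overlap, as 7.9% of all probe sets did. There the difference was 0.23 (SE 0.10) at a limma unadjusted p of 0.0401 and a limma adjusted p of 0.761. These arrays were also set apart from expression values, so this p is a description. Between the pair the difference was -0.083, and without mutant replicate 5 the difference over the remaining arrays was -0.035.

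The actin-binding and filament genes came next. Cnn1 encodes calponin, which restrains actomyosin activity in smooth muscle. Its levels were 7.08, 7.20, 7.10, 7.15 and 7.07 on the wildtype arrays and 7.45, 7.16 and 7.02 on the mutant arrays. Mutant replicate 3 stood above all others, and the difference of 0.09 (95% interval -0.12 to 0.30) became -0.033 without it.

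Tagln encodes transgelin, or SM22 alpha, an actin-bundling protein and early marker of smooth muscle differentiation. It had levels of 9.60, 9.74, 9.47, 9.45 and 9.36 on the wildtype arrays and of 9.86, 9.45 and 9.49 on the mutant arrays. Its difference of 0.07 (95% interval -0.18 to 0.33) likewise turned to -0.058 without mutant replicate 3. Des encodes desmin, the intermediate filament protein of muscle. Its brighter probe set (1426731_at) lay between 7.21 and 7.48 on all 8 arrays and differed by 0.011 (95% interval -0.16 to 0.18). The other (1426732_at), with a mean level of 5.23, differed by -0.20 (SE 0.09) at a limma unadjusted p of 0.0578. Among the 6 arrays it differed by -0.30 without overlap, as 6.97% of all probe sets did below. The 2 probe sets disagreed in sign, so the direction for Des is not settled. The limma adjusted p was 1.0 for Cnn1, Tagln and both Des probe sets.

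**Figure D2:**
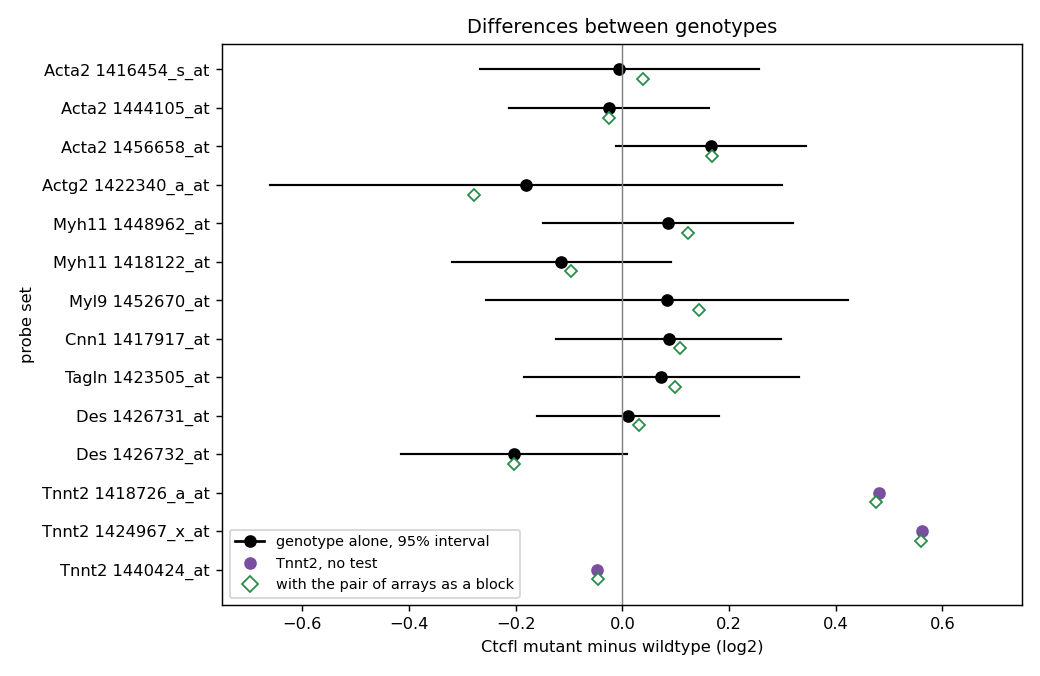
Ctcfl mutant minus wildtype on the log2 scale for each of the 14 probe sets, with 95% intervals from limma for the 11 probe sets of the 7 genes that were tested, and diamonds for the fit with wildtype replicate 7 and mutant replicate 8 as a block. All 11 intervals include 0, and Tnnt2 is drawn without an interval because it was chosen on this difference.

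For none of the 7 tested genes did the difference between genotypes pass the test. With limma 0 of their 11 probe sets passed an adjusted p of 0.05, as did 0 of 45101 probe sets (0.0%), and 0 of the 11 had an unadjusted p under 0.05, which 3.47% of all probe sets had. The comparison without shared variance also called 0 of 45101 after adjustment. The median difference of the 7 brightest probe sets was 0.07, against 0.0032 over all probe sets. The exact two-sided permutation p of these 7 probe sets lay between 0.50 and 1.0, where 5 against 3 arrays allow no p below 0.0357. The intervals of these 7 probe sets leave room for changes of up to 0.18 to 0.66 on the log2 scale, depending on the gene. The 0.18 is that of the brighter Des probe set, and the interval of the dimmer one reached -0.42. In these whole-tissue samples, fewer cells of a type and less RNA per cell cannot be told apart.

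Tnnt2 encodes cardiac troponin T, which ties the troponin complex to tropomyosin in heart muscle. It had 3 probe sets. The one with the _x_at suffix (1424967_x_at) had levels of 6.36, 6.38, 6.87, 6.48 and 6.77 on the wildtype arrays and of 7.40, 7.03 and 6.97 on the mutant arrays. All 3 mutant values lay above the 5 wildtype values, as chosen, and 1.38% of all probe sets did so. The nearest values were 6.97 on mutant replicate 8 and 6.87 on wildtype replicate 4. The means differed by 0.56, a ratio of 1.48.

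The other Tnnt2 probe sets did not show that separation, which rested on 1 probe set with a suffix that the rule for main probe sets avoids. The _a_at probe set (1418726_a_at), whose suffix marks probes common to transcripts of 1 gene, had levels of 6.59, 6.59, 6.96, 6.24 and 7.03 on the wildtype arrays and of 7.50, 7.11 and 6.88 on the mutant arrays. Here mutant replicate 8 lay below wildtype replicates 4 and 7, and the means differed by 0.48. Among the 6 arrays the difference was 0.71, and between mutant replicate 8 and wildtype replicate 7 it was -0.15. The third probe set (1440424_at) was dim, with a mean level of 5.04, and differed by -0.048.

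Within the 5 wildtype arrays Tnnt2 spanned 0.80 on the _a_at and 0.51 on the _x_at probe set. The brightest probe set of Actg2 spanned 0.79 there and those of the other 6 genes 0.13 to 0.41. On the pair the _a_at probe set moved in opposite directions, 0.44 above the other wildtype arrays on replicate 7 and 0.43 below the other mutant arrays on replicate 8. It thus followed neither Acta2 nor Actg2 there.

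**Figure D3:**
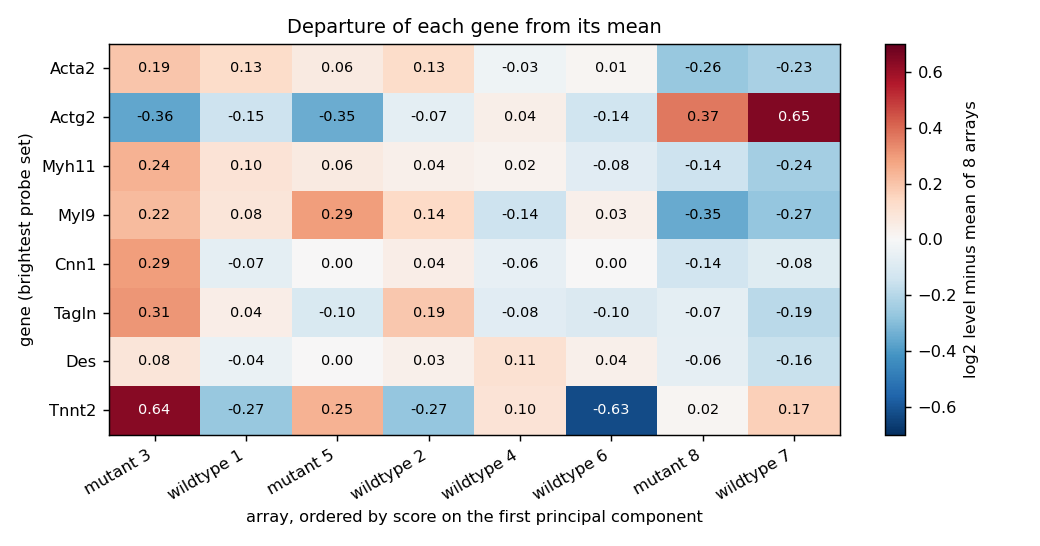
Log2 level of each gene's brightest probe set minus its mean over the 8 arrays, with arrays ordered by their score on the first principal component, so that mutant replicate 8 and wildtype replicate 7 are at the right. On those arrays Acta2, Myh11, Myl9, Cnn1, Tagln and Des are below their means and Actg2 is above its mean by 0.37 and 0.65. Tnnt2 has its extremes elsewhere, 0.64 above on mutant replicate 3 and 0.63 below on wildtype replicate 6.

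Read by array and not by genotype, the genes fell into 3 patterns. Acta2, Myh11, Myl9, Cnn1 and Des, or 5 of the 8 genes by brightest probe set, had the pair of arrays as their lowest values, where 10.3% of all probe sets did. Tagln was lowest on wildtype replicate 7 and came close to this, with mutant replicate 5 and wildtype replicates 4 and 6 between 9.45 and 9.47, just below mutant replicate 8. Actg2 alone had the pair highest, as 8.6% of all probe sets did, and Tnnt2 had neither. The decrease on the pair was 0.29 and 0.39 for Acta2, 0.26 and 0.30 for Myh11 and 0.30 and 0.61 for Myl9, on wildtype replicate 7 and mutant replicate 8 against the others of their genotype. The same differences were -0.062 and -0.29 for Cnn1, -0.19 and -0.11 for Des and -0.20 and -0.17 for Tagln. Cnn1 and Des had the pair lowest by a narrow margin. Cnn1 was 7.07 on wildtype replicate 7 and 7.08 on wildtype replicate 1. Des was 7.30 on mutant replicate 8 and 7.32 on wildtype replicate 1. By main probe set 4 of the 8 genes had the pair lowest, without Acta2. Mutant replicate 3 held the highest value of Acta2, Myh11, Cnn1, Tagln and Tnnt2. The arrays had been set apart from expression values, so no test of these patterns was made.

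Related smooth muscle genes were then described from a list of 22 further genes of the contractile apparatus, of which 21 were measured. With limma 0 passed the adjusted threshold. At an unadjusted p of 0.05, 0 were higher and 1 lower, against 1.76% and 1.7% of all probe sets. That 1 was Kcnmb1, the beta subunit of the calcium-activated potassium channel of smooth muscle, named after its values were seen. It differed by -0.25 (SE 0.08) without overlap, as 1.31% of all probe sets did below, but at a low mean level of 4.62. The median of the list was 0.0094. Smtn, or smoothelin, differed by 0.21 (SE 0.13) and Synm, or synemin, by 0.20 (SE 0.13), and Ppp1r14a, an inhibitor of myosin phosphatase, by -0.15 (SE 0.10) and Tpm2, a tropomyosin, by -0.078 (SE 0.14).

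Some genes of this list also had the pair lowest or highest. Of the 21 genes 6 had the pair lowest, where 10.3% of all probe sets did: Lmod1, Cald1, Tpm1, Tpm2, Ppp1r14a and Csrp1. Csrp1, a LIM protein of the actin cytoskeleton, had 8.09 and 8.14 on the pair and 8.68 to 9.16 on the other arrays. Another 3, Pln, Ppp1r12b and Filip1, had it highest, where 8.6% of all probe sets did. With so few genes, 3 is close to this share. Pln encodes phospholamban, the inhibitor of the calcium pump of the sarcoplasmic reticulum, and had 8.46 and 8.42 on the pair and 7.10 to 7.77 on the others. These genes were named after their values were seen.

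Of 11 regulators of smooth muscle genes, 0 passed either threshold, where 0.0% (adjusted) and 3.47% (unadjusted) of all probe sets did. With so few genes, 0 is close to these shares. Srf, the factor that binds CArG boxes, differed by 0.10 (SE 0.10), Tgfb1, an inducer of the contractile programme, by 0.17 (SE 0.08), Klf4, which opposes that programme, by -0.14 (SE 0.17) and Tgfbr1, a TGF-beta receptor, by -0.074 (SE 0.08). Myocd, the gene of myocardin, lay below the median level and differed by 0.07 (SE 0.22).

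Of 20 genes for peritubular signalling and matrix, 0 passed the adjusted threshold with limma, 0 were higher and 1 was lower at the unadjusted one (1.76% and 1.7% of all probe sets), and the median was -0.032. The 1 was Lum, the matrix proteoglycan lumican, which differed by -0.24 (SE 0.10, limma adjusted p = 1.0). Its mutant levels of 7.02 to 7.07 lay below the wildtype levels of 7.13 to 7.55, as 1.31% of all probe sets did. Ptch1, the hedgehog receptor, differed by 0.12 (SE 0.11), Nr2f2, a nuclear receptor of interstitial cells, by 0.16 (SE 0.13) and Col3a1, a fibrillar collagen, by -0.18 (SE 0.16). The pair of arrays was lowest for 9 of the 20, among them Col1a1, Col1a2, Col3a1, Col4a1 and Col4a2, and highest for 2. Of all probe sets 10.3% had it lowest and 8.6% highest.

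Striated muscle genes were examined because Tnnt2 belongs to that apparatus. Of 25 listed, 24 were measured and 6 lay above the median level, while Myh6, Myh7 and Tnnc1 lay below it. With limma 0 passed the adjusted threshold, and 3 were higher and 0 lower at the unadjusted one, against 1.76% and 1.7% of all probe sets. The 3 were named after their values were seen and were all below the median level. Ryr2, the calcium release channel of heart muscle, differed by 0.43 (SE 0.10). Its mutant levels of 5.03 to 5.22 lay above its wildtype levels of 4.58 to 4.94, as 1.38% of all probe sets did. Tnnt1, the slow skeletal troponin T, differed by 0.25 (SE 0.10) and Tnnc2, a troponin C, by 0.21 (SE 0.08). Brighter members were Tnni3, the cardiac troponin I gene, with 0.11 (SE 0.09), and Ttn, or titin, with 0.12 (SE 0.10), while Myl3, a myosin light chain of heart and slow muscle, had -0.017 (SE 0.08). The remaining 3 above the median level, Tpm3, Myl4 and Ckm, had 0.0022, 0.081 and 0.027. The median of the list was 0.07.

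Markers of the vessel wall were set beside the members, since smooth muscle also surrounds arteries. In the vascular mural list of 7 genes and the endothelial list of 6, 0 passed either threshold. Of all probe sets 0.0% (adjusted) and 3.47% (unadjusted) did. The medians of the lists were 0.031 and -0.0036. Rgs5, a pericyte gene, differed by 0.05 (SE 0.11), Mcam by 0.07 (SE 0.08), Cspg4 by -0.031 (SE 0.10) and Notch3, at a low mean level of 4.88, by 0.0012 (SE 0.09). In the endothelial list Pecam1, at a mean level of 5.58, differed by -0.0035 (SE 0.11), Cdh5 by 0.014 (SE 0.08) and Kdr by -0.0036 (SE 0.06). Only 4 of the 7 mural genes and 2 of the 6 endothelial genes lay above the median level. The pair of arrays was neither lowest nor highest for any of these 13 genes, where 10.3% and 8.6% of all probe sets had it so. With so few genes, 0 is not far from these shares. The log2 of the summed level of the mural list was 9.79 to 9.88 on wildtype and 9.79 to 9.97 on mutant arrays.

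**Figure D4:**
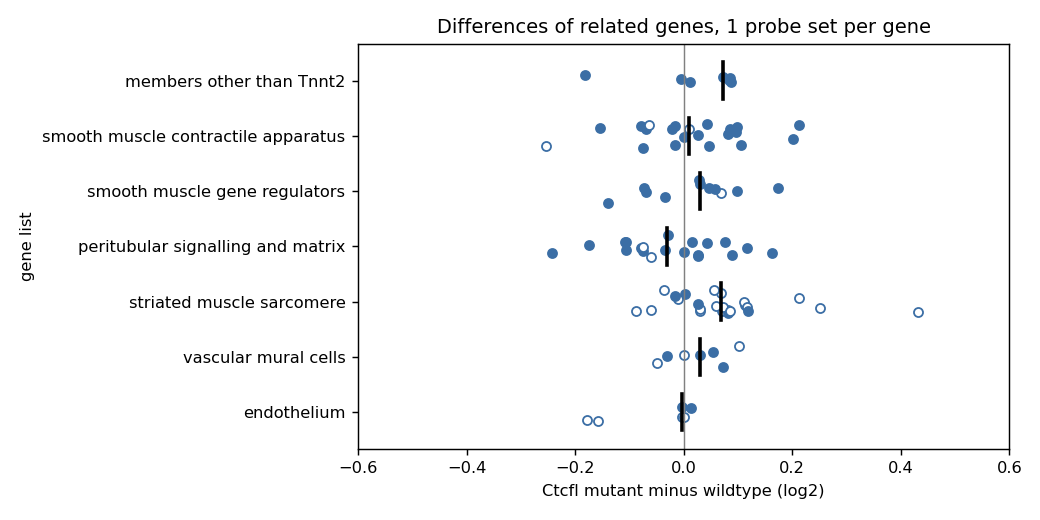
Ctcfl mutant minus wildtype on the log2 scale for each gene of 6 lists and for the 7 genes other than Tnnt2 at their brightest probe set, with 1 point per gene, open points for genes below the median level and bars for list medians. The medians lie between -0.032 and 0.07, and Ryr2 at 0.43 is the farthest point and is open.

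Genes with the pattern most like that of the members were found by Pearson's r over the 8 arrays among 12324 genes above the median level. No p is given, because the genes were picked as the highest of many and the pair of arrays weighs on every r. For the mean of the 7 genes other than Tnnt2, each standardised at its main probe set, these were Tuba1c (r = 0.978, Spearman's rho 0.929), Emp3 (0.961, 0.952), Ivd (0.958, 0.929), ENSMUSG00000072684 (0.950, 0.762) and D430042O09Rik (0.949, 0.976). Among the 6 arrays r was 0.950, 0.950, 0.910, 0.902 and 0.898 in the same order. That mean took Acta2 from the dim 1444105_at and included Actg2, which ran opposite to Myh11 (r = -0.875) and Myl9 (r = -0.911). It therefore stands for the members only in part. With the bright Acta2 probe set and without Actg2, the leading genes were Dhrs7 (0.981), Rsu1 (0.979), Tle5 (0.979), Tpm1 (0.978) and Lamc1 (0.975). This choice was made after the values were seen. Among the 6 arrays their r was 0.937 to 0.982. Tpm1, a tropomyosin, was in the contractile list. For the _a_at probe set of Tnnt2 the leading genes were Plekhh3 (0.933), Pdzd11 (0.902), Camkk2 (0.901), Aco1 (0.901) and Natd1 (0.899), none of them in a muscle list, with r of 0.900 to 0.947 among the 6 arrays.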

How the data were processed

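Log2 levels per probe set and array were used as deposited. The authors named Gene Expression Console (Affymetrix) for quantile normalisation, and RMA for normalisation and background correction in R/Bioconductor. Each array had 1 column. The authors' own means, fold, ratio, p-value and limma columns hold their comparisons and were not used, and the annotation build is not given in the sources used here. The titles of the samples gave genotype and replicate number. Precision is limited by having 5 and 3 arrays.

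All 45101 probe sets were fitted by genotype in limma 3.58.1 under R 4.3.3 (lmFit, then eBayes), without a filter, and adjusted by the Benjamini-Hochberg method over the whole table. This fit was tested on simulated data. Single probe sets were also compared by exact permutation over the arrays, two-sided. Other steps used Python 3.11.15, numpy 2.4.6, pandas 2.3.3, scipy 1.17.1 and matplotlib 3.10.9. The genes were found by the symbol in the table, and the Entrez IDs of all 8 matched RefSeq (GRCm38.p6). Myl6, Actc1, Insl3 and Plin1 of the lists had no probe set of their own symbol.

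The members, the lists and the rules were chosen with earlier results of these data known. By rule, the main probe set of a gene carried no _s_at or _x_at suffix where one existed, and then had the highest mean level. For Acta2 this took the dim 1444105_at, so the brightest probe set is described first. Named list genes were the 2 with the largest rise and the 2 with the largest fall above the median level, beside the first 2 listed for other cell types. Genes of like pattern were the 5 with the highest r.

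Alternatives were leaving out each array, leaving out or blocking wildtype replicate 7 with mutant replicate 8, only probe sets above the median level, median centring, repeated quantile normalisation, an offset of 86.2 on the linear scale, an intensity trend with a robust prior, no shared variance, array weights and other probe sets.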

Additional observations from a re-analysis of the deposited data

Results flagged for a closer look

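Among the 5 wildtype arrays, each of the 14 probe sets was searched for a value remote from the rest, and 1 was found. Actg2 reached 9.46 in wildtype replicate 7, while the next highest wildtype value was 8.85, a gap of 0.765 of the range of the group where 0.71 is the limit. Chance gives such a gap in about 1 of 20 groups. Mutant replicate 8 was also above the other mutant arrays, but 3 arrays are too few for this examination.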

How the results depend on the processing

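The study's text calls the animals littermates, but the labels do not give the litter of each array, so no paired analysis was possible. The replicate numbers are a single count through both genotypes. With limma, 0 of all probe sets passed the adjusted threshold of 0.05 under every alternative but 1. Blocking wildtype replicate 7 and mutant replicate 8 as a pair gave 1, outside this group of genes. At an unadjusted p under 0.05 the number changed from 1564 to 2956 without both of these arrays, 2644 with the block and 707 among the probe sets above the median level, where fewer were tested. Single arrays left out gave 1220 to 2649, the highest when mutant replicate 8 was dropped.

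No tested gene passed the adjusted threshold under any alternative, and the smallest adjusted p was 0.751, for Actg2 and the dimmer Des probe set without both arrays. Actg2 kept its direction under all 17 alternatives, from -0.42 to -0.036. Tnnt2 on its _a_at probe set stayed above 0, from 0.28 with the offset to 0.71 without both arrays. It was chosen on its difference between genotypes, so a kept direction is no support. The direction of the other genes depended on the probe set or on 1 array. Acta2 at its main probe set (-0.025) reversed to 0.17 on 1456658_at, and the bright probe set (-0.0057) gave 0.068 without both arrays and 0.039 with the block. Leaving out 1 array, an alternative chosen after seeing the data, this bright probe set ranged from -0.10 without mutant replicate 3 to 0.12 without mutant replicate 8, and was also above 0 without wildtype replicate 1 (0.025) or 2 (0.026). Myh11 (0.09) reversed to -0.11, Des (0.011) to -0.20 and Tnnt2 to -0.048 on another probe set, and Des also to -0.0044 with repeated quantile normalisation. Leaving out 1 array, the difference at the main probe set ranged from -0.069 to 0.031 for Acta2 (the dim 1444105_at), -0.42 to -0.036 for Actg2, -0.0100 to 0.18 for Myh11, -0.035 to 0.29 for Myl9, -0.033 to 0.18 for Cnn1, -0.058 to 0.15 for Tagln, -0.027 to 0.046 for Des and 0.31 to 0.62 for Tnnt2. Without mutant replicate 3, the dim Acta2 probe set, Myh11, Cnn1, Tagln and Des reversed, as did Myl9 without mutant replicate 5, the dim Acta2 probe set without wildtype replicate 2 and Des without wildtype replicate 7. The cause was not tested. Probe sets near the low end of the scale, among them those of Kcnmb1, Ryr2 and the dim Acta2, Des and Myh11 probe sets, limit what can be read from small differences.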
